A study of Marchantia polymorpha with 18 samples.

Results

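In the liverwort Marchantia polymorpha, the untouched lobes of wounded Mpglr-9 plants were compared with the untouched lobes of wounded wild-type plants. The comparison takes 6 of the 18 libraries of the series: the 3 systemic libraries of Mpglr-9 and the 3 systemic libraries of the wild type, as the labels name them. Mpglr-9 carries a deletion in the glutamate receptor-like gene MpGLR, made by CRISPR editing, and the labels name a single mutant line. Plants of both genotypes had grown on soil for 28 days. On every wounded plant 2 lobes of the thallus, the flat plant body, were crushed with serrated forceps, and the adjacent lobes that had not been crushed were taken 4 h later. Each library pooled the tissue of 9 plants. The other 12 libraries, in 4 groups of 3, hold the crushed lobes of Mpglr-9, the crushed lobes of the wild type, thallus of intact Mpglr-9 plants and thallus of intact wild-type plants. The question is what the loss of MpGLR changes in tissue at a distance from a wound.

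Glutamate receptor-like proteins are ion channels of plant membranes that amino acids can open. In Arabidopsis, members of the family carry electrical and calcium signals from a wounded leaf to undamaged leaves, where jasmonate production and defence genes follow. Marchantia makes no jasmonic acid of the kind found in flowering plants; its receptor MpCOI1, with the repressor MpJAZ, perceives the related dinor-OPDA. MpGLR has no identifier in the gene names used; its own level was not analysed here, so the labelled genotypes have no such check.

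The 3 mutant libraries held 22027733, 24647564 and 22818379 read counts, and the 3 wild-type libraries held 28396396, 18558026 and 22288910. Levels are given in CPM (read counts after scaling to equal library size), and 3 counts correspond to 0.122 to 0.136 CPM in the mutant libraries and to 0.106 to 0.162 CPM in the wild-type libraries. Markers of the thallus were present in both genotypes. MpKAR, needed for the formation of gemmae, averaged 57.4 ± 2.63 CPM in the mutant and 58.8 ± 0.991 CPM in the wild type, and MpNOP1, needed for air chambers, averaged 87.0 ± 9.09 CPM in the mutant and 89.1 ± 3.93 CPM in the wild type (SD, n = 3 each). Of the markers listed for sexual organs, only MpPRM and MpRKD were found in the names. MpPRM, a protamine of sperm, had no read in any of the 6 libraries. MpRKD had 233 to 241 CPM in the mutant libraries and 234 to 248 CPM in the wild-type libraries. The correlation of log2 levels across genes was 0.987 to 0.992 within the mutant libraries, 0.990 to 0.993 within the wild-type libraries and 0.985 to 0.992 between the genotypes. On the leading principal component of the 6 libraries (34.9% of the variance) the genotypes overlapped. On the next component (24.1%) the mutant libraries lay between 5.66 and 19.97 and the wild-type libraries between -23.5 and -3.05.

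A genotype difference was called where the adjusted p of edgeR's quasi-likelihood test was under 0.05, with Benjamini-Hochberg adjustment over all 13450 genes tested. In untouched lobes 7 genes were called, 0.052% of those tested, and all 7 were higher in Mpglr-9. Two-sided edgeR tests over all 18 libraries called 0 genes lower. In these tests 339 genes were lower and 334 higher at an unadjusted p under 0.05, together 673 genes or 5.004% of those tested. DESeq2 called 24 genes higher and 9 lower, and limma-voom called 6 higher and 0 lower. With a replicate block (the replicate number as a further factor) edgeR called 14 higher and 2 lower. On the compared groups alone it called 24 higher and 4 lower, and with both 85 higher and 92 lower. Over all genes the log2 fold change had a median of -0.00. The 6 called genes described here have no symbol in the names used, so they appear by identifier and no function is stated for them.

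**Figure D1:**
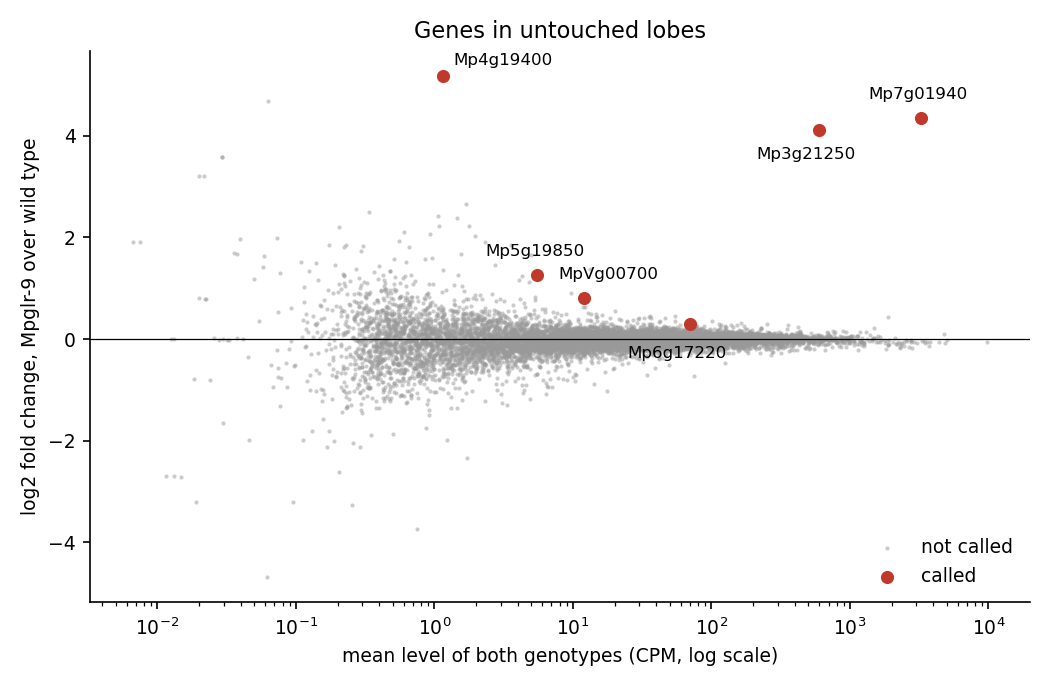
Each point is a tested gene, with its mean level in both genotypes (CPM, log scale) on the horizontal axis and its log2 fold change, Mpglr-9 over wild type, in untouched lobes on the vertical axis. The 6 called genes described are red; Mp7g01940 and Mp3g21250 stand at 4.34 and 4.12, far from the other genes of like level.

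Of these genes, Mp7g01940 and Mp3g21250 showed the widest differences at high level. Mp7g01940 had 6104, 6157 and 6306 CPM in the mutant libraries, against 304, 305 and 305 CPM in the wild-type libraries. The mutant libraries were close to each other, and no wild-type library came near them. The gene was 20.3-fold higher in Mpglr-9 (95% interval 18.5 to 22.3), a log2 fold change of 4.34 ± 0.07 (SE) with an adjusted p of 2.60e-18 in edgeR's quasi-likelihood test. It ranked 2 among all genes by count in each mutant library, with 0.615 to 0.632% of all counts, and between 493 and 498 in the wild-type libraries, with about 0.031%. Mp3g21250 had 1134, 1136 and 1130 CPM in the mutant libraries, against 59.1, 66.6 and 70.2 CPM in the wild-type libraries. Again the genotypes were wide apart and the libraries of each genotype close together. The gene was 17.4-fold higher in Mpglr-9 (interval 14.4 to 20.9), a log2 fold change of 4.12 ± 0.13 with an adjusted p of 2.27e-12 by edgeR, and it ranked 74 to 80 in the mutant libraries.

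A further call came from the V chromosome, the male sex chromosome of Marchantia. MpVg00700 had 15.2, 15.1 and 15.4 CPM in the mutant libraries, against 7.98, 8.12 and 9.87 CPM in the wild-type libraries. The groups did not overlap, and the mutant libraries were nearly equal. Its level was 1.76-fold higher in Mpglr-9 (interval 1.52 to 2.04), with an adjusted p of 9.68e-04 by edgeR. It was the only gene that edgeR called among 40 tested V-chromosome genes, a group looked at after the call was seen. DESeq2 also called MpVg00835, which had 0.135, 0.441 and 1.09 CPM in the mutant libraries, against 2.72, 3.95 and 1.92 CPM in the wild-type libraries (adjusted p = 0.189 by edgeR). Of the 40 genes, 27 had a positive log2 fold change (67.5%, against 49.5% of all genes tested) and the median was 0.04. The neighbour MpVg00690 averaged 6.22 ± 0.239 CPM in the mutant and 4.21 ± 0.474 CPM in the wild type (adjusted p = 0.550 by edgeR), and was called higher in the 12 libraries of intact plants and crushed lobes (log2 fold change 0.69). MpVg00710, on the other side, averaged 105 ± 3.45 CPM in the mutant and 111 ± 4.68 CPM in the wild type.

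The remaining 3 genes lie on numbered chromosomes, and their differences were either small or rested on few reads. Mp5g19850 had 7.66, 9.37 and 6.43 CPM in the mutant libraries, against 3.48, 3.42 and 2.90 CPM in the wild-type libraries. The mutant libraries spread more than the wild-type ones, but every mutant value was above every wild-type value. The gene was 2.39-fold higher (interval 1.83 to 3.12; adjusted p = 0.00733 by edgeR). Mp6g17220 had 75.5, 78.3 and 77.7 CPM in the mutant libraries, against 64.8, 62.9 and 62.1 CPM in the wild-type libraries, a difference of 1.22-fold (interval 1.14 to 1.30; adjusted p = 0.0128 by edgeR). The libraries of each genotype were close together, and the genotypes did not overlap. Mp4g19400 had 46, 57 and 54 reads in the mutant libraries, against 2, 0 and 2 reads in the wild-type libraries. The wild-type level was thus at or below the limit that 3 counts set, and the mutant level was 2.24 ± 0.150 CPM (SD, n = 3). Summed over libraries, 157 reads stood against 4, a ratio of 39.1 after allowing for library size with a 95% interval of 14.99 to 145 that covers counting error only (adjusted p = 0.0252 by edgeR).

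**Figure D2:**
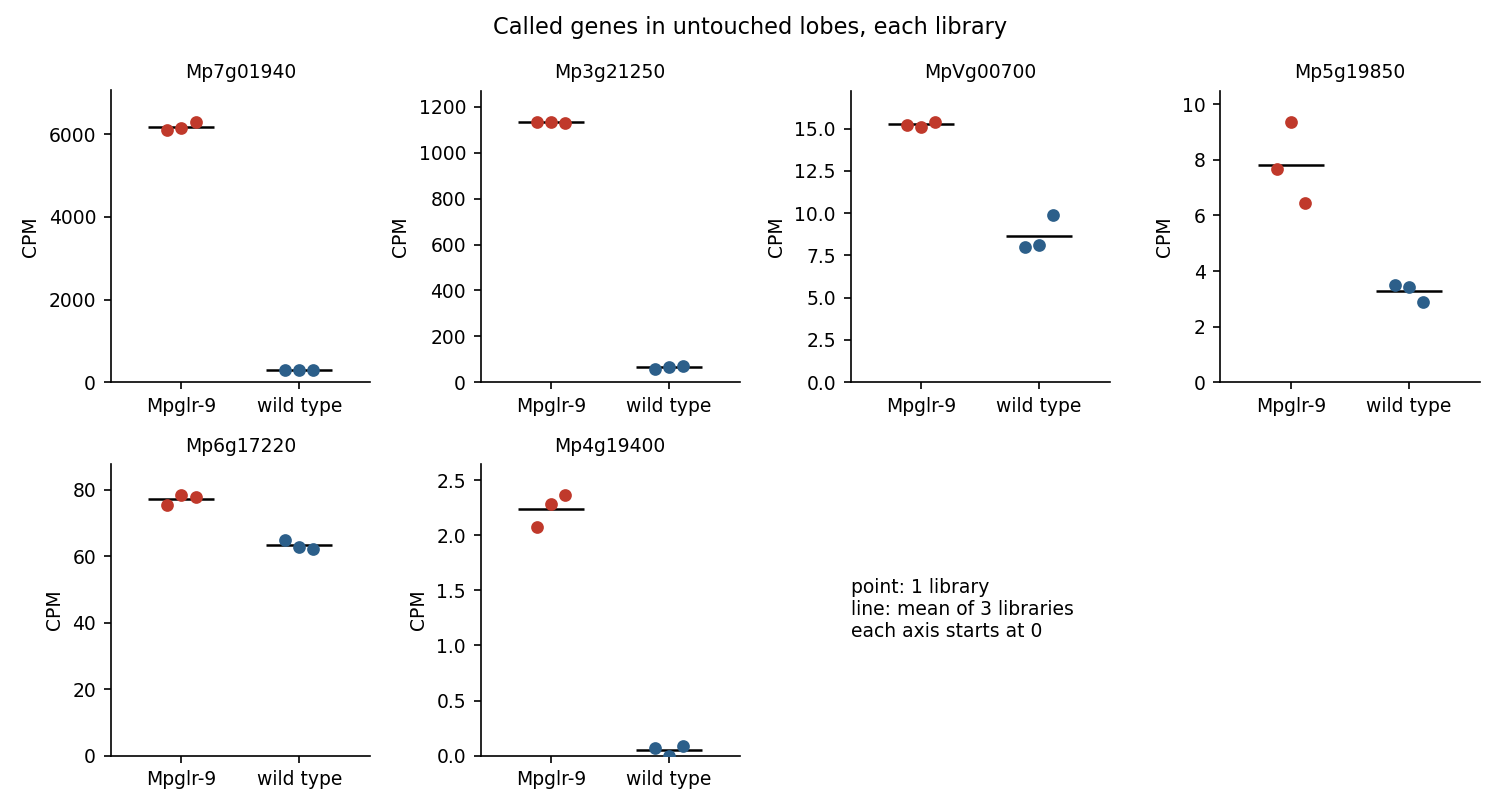
Level (CPM, linear axes from 0) of the 6 called genes in each untouched-lobe library, Mpglr-9 left and wild type right; points are libraries and lines are means of 3. In every panel all mutant points lie above all wild-type points, from 6104 against 305 CPM in Mp7g01940 to 75.5 against 64.8 CPM in Mp6g17220, taking the nearest libraries.

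The calls of 3 genes, Mp7g01940, Mp3g21250 and MpVg00700, were made under all 15 alternative settings tried. The calls of Mp5g19850, Mp6g17220 and Mp4g19400 depended on single libraries. Leaving out any wild-type library, or mutant library 2, ended all 3 of them, and leaving out mutant library 3 ended those of Mp4g19400 and Mp6g17220. Without mutant library 1 the call of Mp4g19400 was lost, and limma-voom did not call it. The adjusted p over all 15 settings reached 0.0725 for Mp5g19850, 0.121 for Mp6g17220 and 0.262 for Mp4g19400, and none changed direction.

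To see whether the same differences stood in tissue that had not been at a distance from a wound, the genotypes were compared in intact plants and in crushed lobes, which use other libraries. In intact plants 3 genes were called (0.0223% of those tested) and in crushed lobes 4 (0.0297%). Mp7g01940, Mp3g21250 and MpVg00700 were called in all 3 kinds of tissue. Mp7g01940 reached 4749 to 6306 CPM in the 9 mutant libraries of the series and 269 to 335 CPM in the 9 wild-type libraries. Mp3g21250 reached 774 to 1136 CPM in the mutant and 53.6 to 85.4 CPM in the wild type, and MpVg00700 reached 14.1 to 17.6 CPM in the mutant and 7.98 to 10.4 CPM in the wild type. None of these 3 ranges overlapped between the genotypes.

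The log2 fold changes of Mp7g01940 and MpVg00700 were close across tissues, and that of Mp3g21250 was smaller in crushed lobes. Mp7g01940 had 4.34 ± 0.07 in untouched lobes, 4.29 ± 0.06 in intact plants and 4.13 ± 0.06 in crushed lobes. MpVg00700 had 0.82 ± 0.10 in untouched lobes, 0.75 ± 0.10 in intact plants and 0.77 ± 0.10 in crushed lobes. Mp3g21250 had 4.12 ± 0.13 in untouched lobes, 3.98 ± 0.12 in intact plants and 3.53 ± 0.12 in crushed lobes; the mutant level was 819 ± 49.5 CPM in crushed lobes, against 1133 ± 3.04 CPM in untouched lobes (SD, n = 3 each). The difference of 0.59 ± 0.16 between untouched and crushed lobes had an unadjusted p of 0.00201 and an adjusted p of 1.00 in edgeR's interaction test.

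Mp5g19850, Mp6g17220 and Mp4g19400 were also higher in the mutant on average in both other tissues, but passed the test in neither. Mp5g19850 averaged 4.52 ± 0.808 CPM in intact Mpglr-9 and 3.12 ± 0.506 CPM in intact wild type, and 4.91 ± 0.411 CPM in crushed lobes of Mpglr-9 and 3.25 ± 0.414 CPM in those of the wild type (SD, n = 3 each). Its log2 fold change was 1.26 in untouched lobes, 0.53 in intact plants and 0.59 in crushed lobes. Mp6g17220 had log2 fold changes of 0.29 in untouched lobes, 0.11 in intact plants and 0.19 in crushed lobes. Mp4g19400 had fitted values of 5.18, 2.61 and 4.42 in that order of tissues, all resting on few wild-type reads, and was called when the 12 libraries of the other tissues were tested together (adjusted p = 0.00728 by edgeR; 10 genes, 0.0743%, were called in that test). Its neighbour Mp4g19430 was the remaining call in crushed lobes, with log2 fold changes of 2.19 there, 1.35 in intact plants and 0.48 ± 0.30 in untouched lobes.

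The test of the difference itself called no gene. Between the genotype difference in untouched lobes and that in intact plants, edgeR called 0 genes, with 356 at an unadjusted p under 0.05; between untouched and crushed lobes it called 0, with 377. DESeq2 and limma-voom also called 0 in each. Of the 6 genes, Mp5g19850 had unadjusted p-values of 0.0111 and 0.0188 in these tests. No genotype difference was therefore shown to be particular to untouched lobes. Untouched and crushed lobes were taken from the same individuals, a link that the fit does not use.

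**Figure D3:**
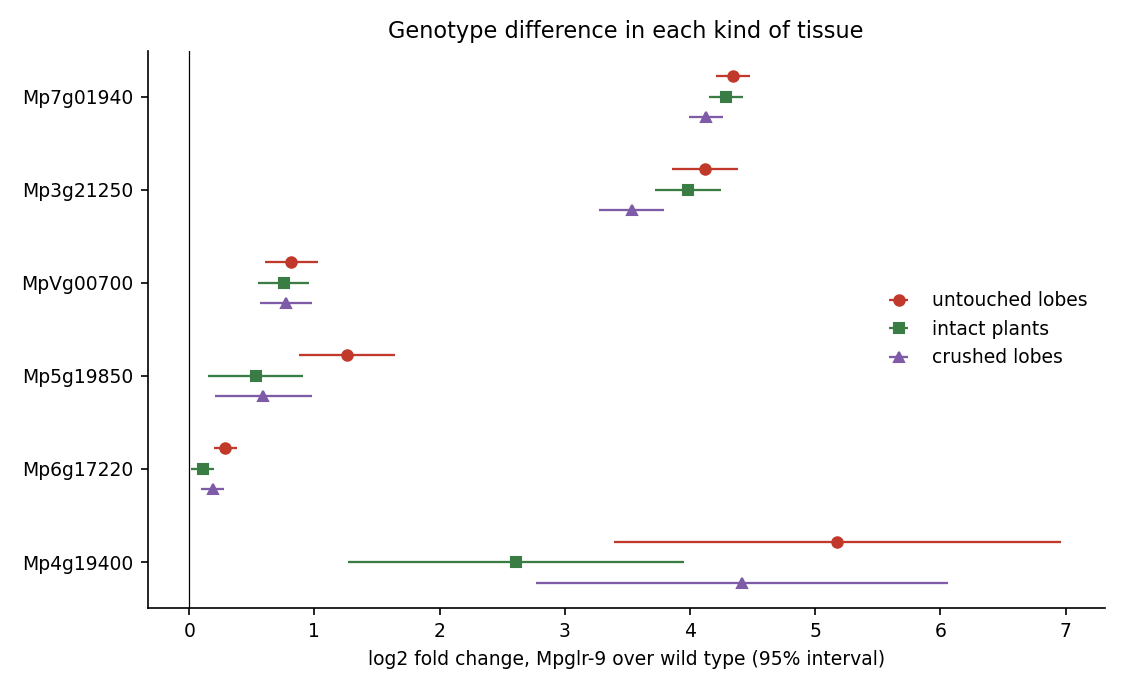
Log2 fold change, Mpglr-9 over wild type, of the 6 called genes in untouched lobes (circles), intact plants (squares) and crushed lobes (triangles), with 95% intervals from edgeR. Every interval lies above 0, those of Mp7g01940 and MpVg00700 nearly coincide across tissues, and that of Mp4g19400 is the widest.

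With no gene called lower by edgeR over all 18 libraries without a replicate block, 4 genes with a symbol that lay near a call are given as values only. MpNPF31, of a family of nitrate and peptide transporters, had 18.8, 15.2 and 13.9 CPM in the mutant libraries, against 21.2, 26.2 and 23.8 CPM in the wild-type libraries. The groups did not overlap (log2 fold change -0.57 ± 0.11, adjusted p = 0.0790 by edgeR). MpExpansin32, of the cell-wall-loosening expansins, had 30.9, 36.4 and 26.9 CPM in the mutant, against 49.2, 52.3 and 38.7 CPM in the wild type, with the same log2 fold change of -0.57 ± 0.11 and adjusted p of 0.0790. It was called when wild-type library 3 or mutant library 2 was left out, and MpNPF31 when mutant library 1 was. MpGPAT6c, of an acyltransferase family that makes cutin precursors in Arabidopsis, averaged 105 ± 9.99 CPM in the mutant and 147 ± 24.7 CPM in the wild type (adjusted p = 0.139). MpER, a receptor kinase of the ERECTA family, averaged 7.98 ± 1.36 CPM in the mutant and 13.1 ± 1.26 CPM in the wild type (adjusted p = 0.210). Among the 4, DESeq2 called each lower. With a replicate block over all libraries, edgeR called MpExpansin32 lower (adjusted p = 0.0153). With that block on the compared groups alone, it called MpExpansin32, MpNPF31 and MpER lower (adjusted p = 4.5e-05, 0.0320 and 0.00249). The higher genes nearest to a call by edgeR were Mp6g17160 at 46.8 ± 2.37 CPM in the mutant and 37.0 ± 0.517 CPM in the wild type (adjusted p = 0.0637), and Mp3g09160 at 14.3 ± 0.875 CPM in the mutant and 9.23 ± 0.922 CPM in the wild type (adjusted p = 0.0790). Mp3g09160 was called in the 12 libraries of the other tissues, with a log2 fold change of 0.47 there and 0.63 in untouched lobes. In untouched lobes Mp6g17160 and Mp3g09160 were called by DESeq2, by edgeR with a replicate block and by edgeR on the compared groups alone. Upper-quartile scaling also gave a call of Mp6g17160 (adjusted p = 0.0493 by edgeR).

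A run of neighbouring genes on chromosome 5 stood out when the values were examined and was chosen on them, so what follows is a description and not a test of the run. Between Mp5g04540 and Mp5g04660 lie 13 identifiers, of which 11 had enough reads to be tested. All 11 were higher in every mutant library than in every wild-type library of untouched lobes, where 7.38% of all tested genes were. Their log2 fold changes ran from 1.45 to 2.66 with a median of 2.10, and none was called by edgeR over all genes or by limma-voom. DESeq2 called 8 of them, edgeR on the compared groups alone 9, edgeR with a replicate block 3, and edgeR with both 11. The genes are weakly expressed: Mp5g04540 had 2.25, 3.04 and 3.50 CPM in the mutant libraries, against 0.592, 0.374 and 0.893 CPM in the wild-type libraries. Mp5g04570, the highest of them, had 7.03, 7.25 and 8.40 CPM in the mutant, against 1.46, 2.41 and 3.44 CPM in the wild type.

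Summed over the 11 genes, the level was 36.0 ± 5.70 CPM in untouched lobes of Mpglr-9 and 9.63 ± 3.42 CPM in those of the wild type (SD, n = 3 each). In intact plants the sum was 20.02 ± 4.99 CPM in Mpglr-9 and 12.8 ± 3.49 CPM in the wild type, and in crushed lobes 34.7 ± 7.86 CPM in Mpglr-9 and 29.4 ± 15.3 CPM in the wild type. The genotypes were apart in untouched lobes and overlapped in the other tissues. Yet edgeR's interaction tests called none of the 11, with a smallest adjusted p of 0.9999 against intact plants and against crushed lobes. The unadjusted p was under 0.05 for 5 genes against intact plants and for 6 against crushed lobes, in a run chosen on its untouched-lobe values. In intact plants 9 of the 11 genes had a positive log2 fold change (median 0.68), and in crushed lobes 7 had (median 0.49). The genes just before the run, Mp5g04440 to Mp5g04530, had log2 fold changes between -0.77 and 0.09. Among them Mp5g04450 averaged 29.4 CPM in the mutant and 37.2 CPM in the wild type, without overlap (log2 fold change -0.34, adjusted p = 0.123 by edgeR). DESeq2 called Mp5g04450 lower, as did edgeR on the compared groups alone, with and without a replicate block. Neighbouring genes of such a run may be similar copies that share reads, and their sequences were not examined.

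**Figure D4:**
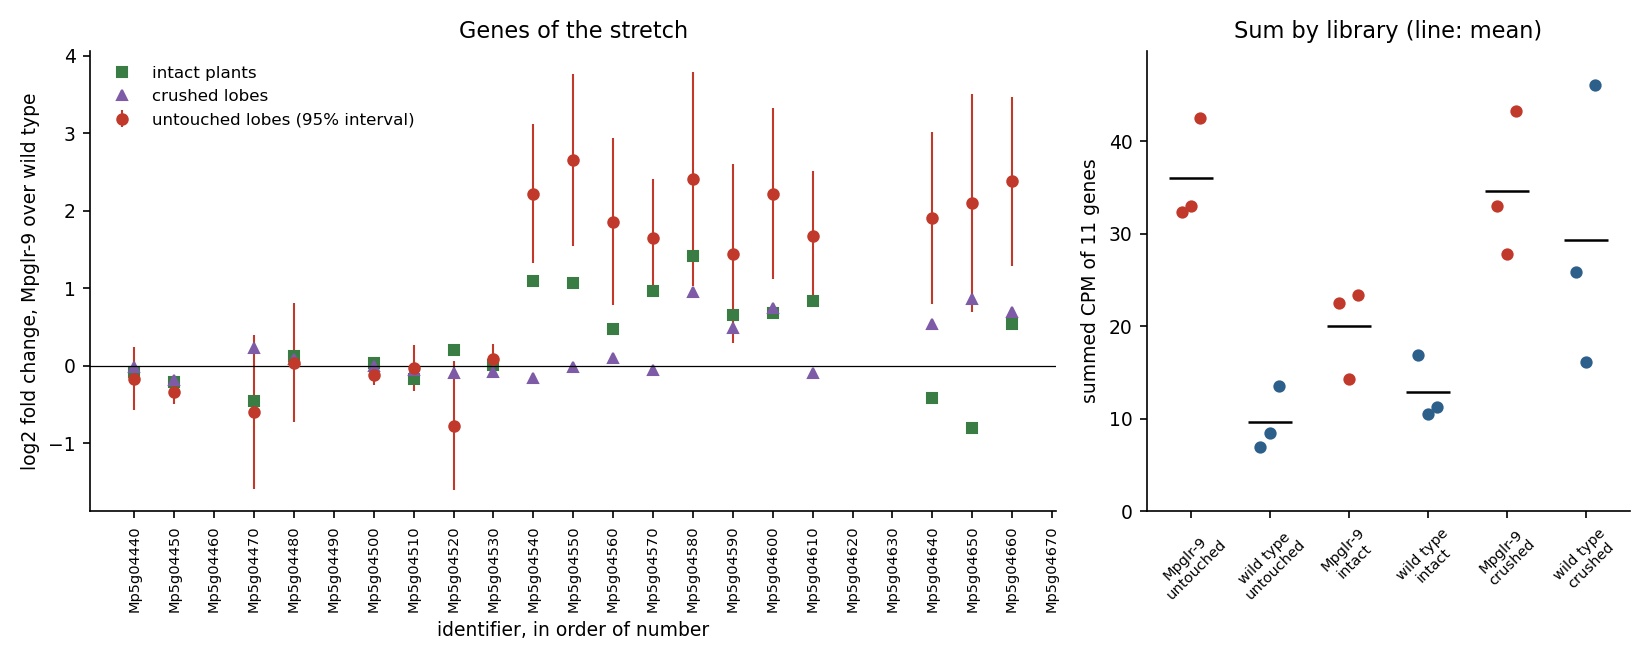
Left, log2 fold change (Mpglr-9 over wild type) of genes in order of identifier on chromosome 5, in untouched lobes (red, 95% intervals), intact plants (squares) and crushed lobes (triangles); gaps are identifiers with too few reads. Right, summed level (CPM) of the 11 tested genes from Mp5g04540 to Mp5g04660 in each library with the group mean as a line; in untouched lobes the mutant libraries lie between 32.4 and 42.5 CPM and the wild-type libraries between 6.97 and 13.5 CPM.

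Genes that respond to wounding were compared next, because the untouched lobes are the tissue in which a travelling signal would act. Crushing raised 986 genes at least 2-fold in the wild type, by edgeR's test of crushed lobes against intact plants, in which 55.5% of genes were called. None of the 986 was called between the genotypes in untouched lobes by edgeR over all libraries without a replicate block. In that test 27 were higher and 18 lower at an unadjusted p under 0.05. DESeq2 called 4 higher, all from the run on chromosome 5. With a replicate block edgeR called 2 higher, on the compared groups alone 5 higher and 1 lower, and with both 12 higher and 9 lower. The median log2 fold change of the 986 genes was 0.00, as over all genes. Their summed level was 32154 to 34780 CPM in untouched lobes of Mpglr-9 and 33082 to 33534 CPM in those of the wild type, against at least 120709 CPM in crushed lobes of the wild type. Intact wild-type plants had 32108 to 35181 CPM. The sum thus showed no rise in untouched lobes of the wild type, so it cannot show whether the mutant loses one. Of the 649 genes that crushing lowered at least 2-fold, 0 were called by DESeq2, limma-voom and edgeR without a replicate block. By edgeR 12 were higher and 13 lower at an unadjusted p under 0.05, and the median was -0.03. With a replicate block edgeR called 1 of the 649 higher, and with that block on the compared groups alone 10 higher and 12 lower.

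As a sum, markers of crushed tissue were at the same low level in both genotypes. The 10 wound genes chosen as such markers summed to 264 to 289 CPM in untouched lobes of Mpglr-9 and 260 to 298 CPM in those of the wild type. In crushed lobes the sum was at least 5361 CPM. Most of the sum in untouched lobes came from MpLOX2 and MpPPO42. MpLOX2, a lipoxygenase that makes oxylipin precursors, averaged 156 ± 7.98 CPM in the mutant and 148 ± 6.02 CPM in the wild type (log2 fold change 0.07 ± 0.10). MpPPO42, a polyphenol oxidase, averaged 97.3 ± 6.50 CPM in the mutant and 106 ± 10.1 CPM in the wild type. Outside these markers, Mp4CL2, a ligase that activates cinnamic acids for phenylpropanoid synthesis, averaged 144 ± 6.94 CPM in the mutant and 141 ± 4.41 CPM in the wild type. MpCYP813B1, a cytochrome P450 also outside these markers, is lowered by crushing, from 15.7 CPM in intact wild type to 1.16 CPM in crushed wild type. In untouched lobes it averaged 17.2 ± 5.61 CPM in the mutant and 12.1 ± 3.71 CPM in the wild type (0.50 ± 0.29, adjusted p = 0.948 by edgeR), with overlapping libraries.

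Oxylipin and jasmonate-type genes gave no call. In the 15 tested lipoxygenases, which start oxylipin synthesis, 7 had a positive log2 fold change and the median was -0.06; in the 16 later oxylipin enzymes and desaturases 7 did and the median was -0.01. The receptor gene MpCOI1 had 102, 103 and 110 CPM in the mutant libraries, against 98.4, 103 and 106 CPM in the wild-type libraries. The repressor gene MpJAZ had 41.9, 37.0 and 37.7 CPM in the mutant, against 35.4, 37.0 and 34.4 CPM in the wild type (0.13 ± 0.10, adjusted p = 0.982 by edgeR). The adaptor gene MpNINJA averaged 143 CPM in the mutant and 144 CPM in the wild type. The libraries of MpCOI1 overlapped, and those of MpJAZ touched at 37.0 CPM.

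Channel, pump and calcium genes were looked at because MpGLR codes for an ion channel. None of 33 tested transport genes was called by DESeq2, limma-voom or edgeR without a replicate block. Of the 33, 14 had a positive log2 fold change and the median was -0.02. With that block on the compared groups alone, edgeR called 2 of the 33 higher, among them MpHA4 (adjusted p = 0.000192). The proton pump gene MpHA4 had 67.8, 55.6 and 64.9 CPM in the mutant, against 45.8, 39.9 and 51.9 CPM in the wild type (0.45 ± 0.15, adjusted p = 0.712 by edgeR). The libraries did not overlap; all mutant libraries were above all wild-type libraries in 3 of the 33 genes, near the 7.38% of all tested genes. The vacuolar channel gene MpTPC1, of the two-pore family, averaged 242 CPM in the mutant and 229 CPM in the wild type (0.08 ± 0.05). In the 6 calcium-signalling genes, among them the calcium sensors MpCBL-A and MpCBL-B and their kinases MpCIPK-A and MpCIPK-B, log2 fold changes ran from -0.03 to 0.12 and 0 were called.

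The genes of phenolic metabolism and defence were also without a call, except by edgeR with a replicate block on the compared groups alone. That fit called MpPAL1 and 2 polyphenol oxidases lower, and 1 gene of the chalcone synthase family and flavonoid synthesis higher. Of 16 phenylpropanoid entry genes 9 had a positive log2 fold change (median 0.02), and the unadjusted p was under 0.05 for 1 higher and 1 lower gene. MpPAL1, a phenylalanine ammonia lyase that opens the pathway, had 40.1, 37.6 and 34.7 CPM in the mutant, against 42.7, 52.1 and 45.4 CPM in the wild type (-0.32 ± 0.09, adjusted p = 0.580 by edgeR). Of 28 genes of the chalcone synthase family and flavonoid synthesis 16 were positive (median 0.07). Of 36 polyphenol oxidases, which brown wounded tissue, 10 were positive (27.8%, median -0.15), and MpPPO9 averaged -0.35 ± 0.12 on the log2 scale. Of 47 dirigent genes, which guide the coupling of phenolics, 14 were positive; the median was -0.02, or -0.06 without the 5 genes that had no read in a genotype.

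Further families of defence and metabolism are given beside all tested genes, of which 49.5% had a positive log2 fold change with a median of -0.00. Among 102 class III peroxidases, which use hydrogen peroxide in the cell wall, 45 were positive (median -0.03). Among 84 cytochrome P450 genes 39 were (median -0.02), among 39 pathogenesis-related and chitinase genes 21 were (median 0.01), and among 36 cupins 13 were (median -0.08). Terpene synthesis had 5 positive of 14 (median -0.09). MpTPS6, a terpene synthase, had 24.3, 25.2 and 7.57 CPM in the mutant, against 5.85, 12.1 and 4.24 CPM in the wild type. Its libraries overlapped, but each mutant library was above the wild-type library of the same number. With a replicate block edgeR called MpTPS6 higher (log2 fold change 1.35, adjusted p = 0.0153). Glutathione S-transferase and redox genes had 26 positive of 47 (median 0.00), and 2-oxoglutarate oxygenases 12 of 29 (median -0.05). In these 7 families edgeR without a replicate block called 0 genes over all libraries, with 5 higher and 10 lower at an unadjusted p under 0.05. DESeq2 and limma-voom called 0.

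Of the transcription factor families, edgeR, DESeq2 and limma-voom called none of 12 WRKY, 22 AP2/ERF, 8 NAC, 44 MYB and 37 bHLH genes. The AP2/ERF genes, a family of hormone and stress regulators, had 5 positive log2 fold changes of 22 and a median of -0.12; MpERF17 averaged 4.68 CPM in the mutant and 6.87 CPM in the wild type (-0.55 ± 0.25). The WRKY genes, regulators of defence, had 9 positive of 12 with a median of 0.02, and MpWRKY5 had 52.5, 58.4 and 55.5 CPM in the mutant, against 49.2, 47.7 and 52.1 CPM in the wild type (0.16 ± 0.06, adjusted p = 0.860 by edgeR). MYB genes had a median of -0.02, bHLH genes 0.01 and NAC genes -0.04.

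Lists of genes of growth had more negative than positive log2 fold changes, and edgeR over all libraries without a replicate block called 0 of their members. With a replicate block it called MpExpansin32 lower (adjusted p = 0.0153). With that block on the compared groups alone it called 6 cell wall genes lower and 1 higher. That fit also called 1 histone or cell cycle gene and 1 auxin gene lower. Of 41 histone and cell cycle genes 8 had a positive log2 fold change (19.5%, against 49.5% of all genes) and the median was -0.11. In 18 of the 41 every mutant library was below every wild-type library, where 7.33% of all tested genes were, and none was above. Their summed level was 2863, 2805 and 2842 CPM in the mutant libraries, against 2978, 3039 and 3003 CPM in the wild-type libraries; intact plants ranged from 2827 to 3042 CPM. MpCDKB, a mitotic cyclin-dependent kinase, averaged 18.1 CPM in the mutant and 22.7 CPM in the wild type (-0.32 ± 0.15), and MpMCM8, of a family of replication helicases, averaged 3.55 CPM in the mutant and 5.15 CPM in the wild type (-0.53 ± 0.16, adjusted p = 0.612 by edgeR). Of 58 cell wall genes 18 were positive (median -0.12), with MpExpansin32 the only member that DESeq2 called, and of 40 auxin genes 12 were (median -0.06). The auxin repressor gene MpIAA had 747, 682 and 670 CPM in the mutant, against 774, 793 and 787 CPM in the wild type (-0.16 ± 0.06, adjusted p = 0.880).

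Of 5 markers of the apical notch, where the thallus grows, 3 were found in the names. Over all libraries without a replicate block edgeR called 0 of them. With that block on the compared groups alone it called MpCLV1 (adjusted p = 0.0259) and MpYUC2 (adjusted p = 0.0148) lower. That fit called 85 genes higher and 92 lower. The sum of the 3 markers, most of it MpCLV1, was 339 to 389 CPM in the mutant and 420 to 438 CPM in the wild type. MpCLV1, a receptor kinase of the meristem, averaged 334 ± 23.1 CPM in the mutant and 391 ± 11.1 CPM in the wild type (-0.23 ± 0.08, adjusted p = 0.768 by edgeR), and MpYUC2, an auxin synthesis enzyme, averaged 19.5 ± 2.16 CPM in the mutant and 25.5 ± 2.37 CPM in the wild type (-0.39 ± 0.16, adjusted p = 0.898). MpCLE2, a peptide ligand of MpCLV1, averaged 11.7 ± 1.66 CPM in the mutant and 11.7 ± 1.01 CPM in the wild type. In bulk tissue fewer cells of a type and less RNA per cell cannot be told apart, and the part that the share of notch tissue plays in the growth genes was not tested. Markers of other tissues overlapped between the genotypes: 5 oil body genes summed to 133 to 173 CPM in the mutant and 162 to 164 CPM in the wild type, and 2 gemma cup genes to 61.7 to 65.8 CPM in the mutant and 62.4 to 69.5 CPM in the wild type.

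No gene of abscisic acid signalling and desiccation was called by DESeq2, limma-voom or edgeR without a replicate block. With that block on the compared groups alone, edgeR called 2 lower. Of the 89 tested 28 had a positive log2 fold change (31.5%), with a median of -0.15, and 2 were lower and 0 higher at an unadjusted p under 0.05. Many are late embryogenesis abundant genes, whose proteins protect drying cells. MpLEAL1 averaged 25.9 ± 15.5 CPM in the mutant and 42.5 ± 16.96 CPM in the wild type, and MpDHN1, a dehydrin, averaged 6.21 ± 5.15 CPM in the mutant and 9.00 ± 5.86 CPM in the wild type. In both, the libraries overlapped and the spread within a genotype was about as large as the difference between the genotypes. The 6 heat shock genes, mostly HSP90 chaperones, had 5 positive of 6 with a median of 0.12, and 0 were called. Their summed level was 1852, 1866 and 1854 CPM in the mutant libraries, against 1689, 1700 and 1755 CPM in the wild-type libraries. Intact plants ranged from 1609 to 1787 CPM. In 2 of the 6 every mutant library was above every wild-type library, where 7.38% of all tested genes were. MpHSP90-1 had 971, 1001 and 978 CPM in the mutant, against 880, 901 and 908 CPM in the wild type (0.13 ± 0.06, adjusted p = 0.948 by edgeR). The 5 chlorophyll and Calvin cycle genes had log2 fold changes from -0.09 to 0.01.

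**Figure D5:**
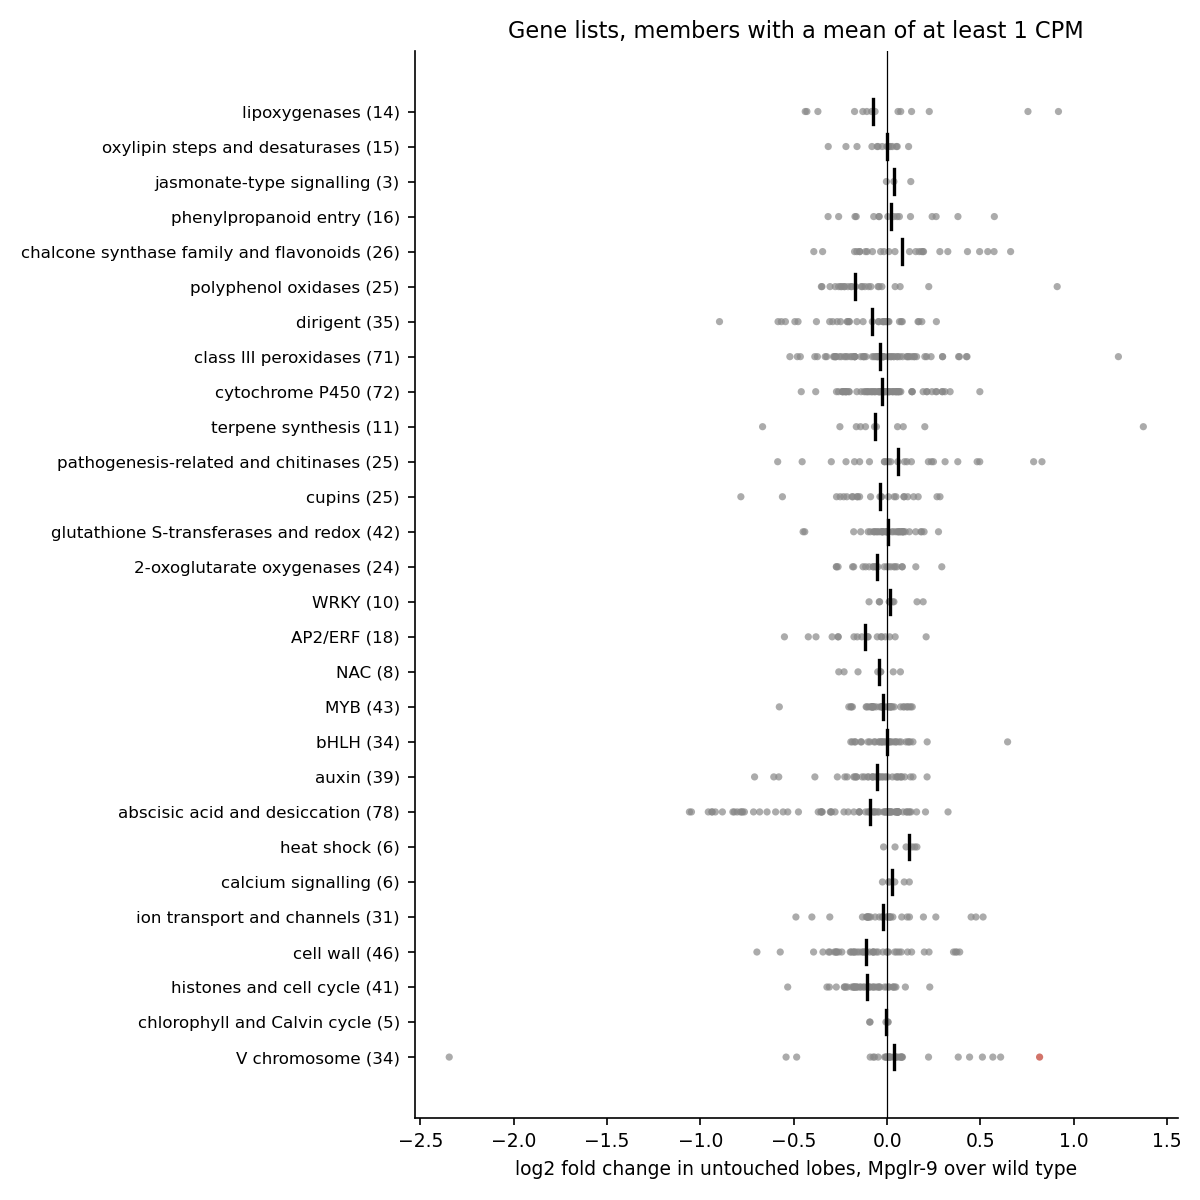
Log2 fold change in untouched lobes, Mpglr-9 over wild type, of the members of each gene list with a mean of at least 1 CPM (number in brackets); points are genes, ticks are medians and the called gene MpVg00700 is red. Over all tested members, those under 1 CPM included, the list medians run from -0.15 to 0.12. Polyphenol oxidases and the abscisic acid and desiccation genes are at -0.15, and heat shock genes are at 0.12.

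The data set limits on the differences that went uncalled. Of the 9322 genes at 10 CPM or more, 99.5% had a 95% interval of the log2 fold change within -1 and 1, with a median half-width of 0.16. At 1 to 10 CPM the share was 81.4% of 2767 genes, and under 1 CPM it was 12.1% of 1361 genes. A difference of 2-fold was thus bounded for nearly all well-expressed genes and for few weak ones.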

How the data were processed

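Poly-A RNA of thallus was sequenced as paired reads, per the labels' protocols. HISAT2 and HTSeq were used, per the submitters' processing notes. Not given in the sources used here are their versions, the strand setting and the build of the genome. The deposited values are raw read counts per gene, 19355 identifiers in 18 libraries with 3 empty columns, which were not used. Because the strand setting is not given, reads of a gene and of an overlapping antisense partner may be mixed, and similar copies may share reads.

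Symbols were taken from a RefSeq gene table (assembly MpTak2_v7.1), matched by locus number: 17384 identifiers had a locus tag and 3091 a symbol. No coordinates were used.

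The deposited counts went through edgeR 4.0.16 (R 4.3.3): filterByExpr by group (minimum count 10) left 13450 genes, libraries were scaled by TMM, and 6 group means were fitted to all 18 libraries with robust quasi-likelihood dispersion, two-sided. Adjusted p-values (Benjamini-Hochberg) run over all genes tested; standard errors are the log2 fold change divided by the square root of F, and intervals are 95%. Alternatives used DESeq2 1.42.0, limma 3.58.1, other filters and scalings, a replicate block, the compared groups alone, and each library left out. The procedure was tested on simulated counts. P-values measure the spread between the labels' biological replicates, each a pool of plants of the same line. Intervals on reads and the limit of 3 counts cover counting error only.

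Named genes are the called genes, those with the smallest p in each direction, in each list the members with the smallest p, tissue markers and wound genes; further members of lists, MpVg00690, MpVg00710, Mp4g19430 and the chromosome 5 run were chosen after their values were seen. The comparison, the lists and the rule were chosen with earlier results of these data known. The lists match symbols only, so members without a symbol are not counted. 1 of the called genes is not reported here.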

Additional observations from a re-analysis of the deposited data

How the results depend on the processing

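The 7 calls in untouched lobes became 8 with upper-quartile scaling, 6 with limma-voom, and 7 without a filter, with a stricter filter or without robust dispersion. DESeq2 called 33 (9 of them lower), and 28 were called when the compared groups were fitted alone. Leaving out single libraries gave 3 to 6. Intact plants (3 calls) gave 7 with DESeq2 and 3 in every fit without a library. Crushed lobes (4 calls) gave 29 with DESeq2, 2 with the compared groups alone and 3 to 11 without single libraries, the 11 without wild-type library 3. The 12 other libraries (10 calls) gave 46 with DESeq2, 5 with the compared groups alone and 5 to 20 without single libraries, the 20 without crushed wild-type library 3. The interaction tests stayed at 0 calls in every setting tried. The causes were not tested. For the named genes over all settings, 1722 values kept direction and side of the threshold, 73 passed it only under the alternative, 22 no longer passed it, 25 values of genes that were not called changed sign, and no called gene reversed.

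The numbers 1 to 3 were not taken to pair the genotypes: the correlations of same-numbered libraries of untouched lobes, as deviations from their group means, were 0.09, 0.04 and 0.39, and mutant library 2 correlated best with wild-type library 1 (0.32). As a hint from the data and not from the design, the libraries numbered 3 stood highest of their group on the second principal component of all 18 libraries in all 6 groups. With a replicate block over all libraries 16 genes were called in untouched lobes, 9 in crushed lobes and 23 in the 12 other libraries. The replicate block called MpTPS6 higher in untouched lobes (log2 fold change 1.35, adjusted p = 0.0153 by edgeR, against 0.948 without the block); over all its alternatives its adjusted p otherwise ran from 0.196 to 1. With the replicate block and the compared groups alone there were 177 in untouched lobes (85 higher, 92 lower), 10 in intact plants and 47 in crushed lobes.

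Depth limits genes under 1 CPM, where intervals are wide. A single mutant line means that the deletion and other differences of that line cannot be told apart.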
